A study of Mus musculus with 2 samples.

Results

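Blood clotting depends on a set of plasma proteins that are made mainly by hepatocytes, and 10 of their genes were followed in hepatocytes from undamaged mouse liver (0 h) and from liver regenerating 48 h after partial hepatectomy (PHx48h). PHx is the surgical removal of a large part of the liver, after which the remaining lobes regrow. The genes were taken by name from the 27998 genes listed in the files. They were Fga, Fgb and Fgg (the chains of fibrinogen), F2 (prothrombin), F9 (factor IX), F10 (factor X), Serpinc1 (antithrombin), Proc (protein C), Plg (plasminogen) and Kng1 (kininogen).

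In the clotting cascade, activated factor IX helps to activate factor X, activated factor X cuts prothrombin into thrombin, and thrombin cuts soluble fibrinogen into fibrin, the mesh of a clot. Antithrombin blocks thrombin and activated factor X, activated protein C degrades the cofactors that speed the cascade, and plasmin, which is cut from plasminogen, dissolves fibrin. Kininogen carries bradykinin and takes part in the contact phase of clotting. Fibrinogen is also an acute phase protein, whose synthesis in hepatocytes is raised by interleukin signalling through STAT and C/EBP factors.

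The mice were C57BL/6, aged 10 to 12 weeks and fed a normal diet by the labels, and the methods describe them as adult males of the substrain C57BL/6J, with an age range at surgery that starts and ends lower. Hepatocytes were freed by collagenase perfusion in 2 steps, and part of the cells of 1 preparation per time point went into a droplet single-cell RNA-Seq (scRNA-Seq) library of 10X Genomics 3′ version 2 chemistry. There was thus 1 library per group, which for PHx48h came from a single mouse by the methods, and the undamaged library carried the same PHx protocol label as the regenerating library, with a time of 0 h. The barcode names the droplet a transcript came from, and a random tag on its captured end, the unique molecular identifier (UMI), lets copies of it be counted once, whatever the length of the transcript.

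Barcodes were divided by the share of their UMIs that came from the 13 mitochondrial genes. The undamaged library held 59202 barcodes and 96118593 UMIs, of which 3870 barcodes (6.54%) had above 30% mitochondrial UMIs and 52587 (88.8%) had under 2%. The regenerating liver gave 1586 barcodes with 18198719 UMIs in all, of which 765 barcodes (48.2%) were above 30% and 522 (32.9%) under 2%. Levels are given in counts per 1000000 non-mitochondrial UMIs (CPM), summed over the barcodes of a class. The 4 classes held between 3135996 and 78751891 non-mitochondrial UMIs, and the median depth of a barcode was 1213.5 and 1413 non-mitochondrial UMIs at 0 h (above 30% and under 2%) and 4411 and 5271.5 at 48 h. The smallest barcode held 1183 UMIs at 0 h and 4578 at 48 h, so the libraries reached down to unlike depths. After its own filtering the paper kept far fewer undamaged hepatocytes than there are barcodes here. Whether the 52587 undamaged barcodes under 2% each held a cell was not tested. Their counts of the 10 genes varied between barcodes little more than sampling from a common profile would give (variance over mean 1.01 to 1.03), which touches every value of that class and every ratio of 48 h over 0 h under 2%.

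Because there was no replicate library, no test between groups was made. Intervals are 95% intervals, exact Poisson for a level and exact conditional binomial for a ratio, and they cover counting error only, not differences between mice or preparations. A gene was called higher or lower when its levels differed at least 2-fold and their mean was at least 10 CPM. Fewer cells that express a gene and less RNA per cell cannot be told apart in summed counts. The libraries shared 148 barcode sequences (9.33% of the PHx48h barcodes), and doublets were not removed.

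The hepatocyte label was set beside marker genes, summed over each class. RNA free in the suspension of a hepatocyte preparation would give like sums, so they cannot show that single barcodes held hepatocytes. The 10 hepatocyte markers (among them Alb and Apoa1) were all detected in each of the 4 classes and together gave 147586 CPM above 30% and 110977 under 2% at 0 h, and 125695 and 84822 at 48 h. Macrophage, endothelial and stromal marker lists each summed to between 26.1 and 183 CPM, the highest being the stromal list under 2% at 48 h. T or NK cell and B cell markers summed to at most 6.90 CPM at 0 h, and none was detected in the PHx48h classes. Platelet markers, which bear on clotting genes because platelets carry coagulation proteins, summed to between 1.82 and 3.29 CPM, with Ppbp and Gp9 at 0 UMIs in all 4 classes. Neutrophil markers reached at most 5.40 and cholangiocyte markers at most 14.5 CPM. Red cell transcripts gave 54.5 and 246 CPM at 0 h and 27.6 and 27.7 at 48 h. The nuclear transcripts Malat1 and Neat1 together gave 5964 and 2306 CPM at 0 h, and 3423 and 2248 at 48 h. Proliferation genes, a list of 25, gave 29.9 and 48.6 CPM at 0 h against 1195 and 1619.9 at 48 h.

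The 3 fibrinogen genes lie next to each other on chromosome 3 of GRCm38, Fgg at chr3:83007724-83015049 (+ strand), Fga at chr3:83026076-83033627 (+) and Fgb at chr3:83040141-83049863 (−). Their promoters are shown because their products are assembled into 1 protein and their levels are compared chain by chain in the results that follow. Each line gives the 250 bases upstream of the RefSeq start in GRCm38.p6, read 5′ to 3′ on the strand of the gene, at chr3:83025903-83026152 (+) for Fga, chr3:83049864-83050113 (−) for Fgb and chr3:83007474-83007723 (+) for Fgg. The RefSeq start of Fga lies inside the annotated gene given above. Capitals mark matches, on either strand, to TTCNNNGAA (the STAT consensus), CTGGGAA (an element of acute phase promoters), TTGCNNAA (a C/EBP-type site) and GTTAAT (the core of the HNF1 site).
Fga: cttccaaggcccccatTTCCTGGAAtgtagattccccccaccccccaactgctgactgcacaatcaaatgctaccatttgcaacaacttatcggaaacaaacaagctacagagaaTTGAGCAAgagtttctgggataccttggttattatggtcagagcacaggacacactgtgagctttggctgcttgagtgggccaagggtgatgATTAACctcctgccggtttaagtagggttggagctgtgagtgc
Fgb: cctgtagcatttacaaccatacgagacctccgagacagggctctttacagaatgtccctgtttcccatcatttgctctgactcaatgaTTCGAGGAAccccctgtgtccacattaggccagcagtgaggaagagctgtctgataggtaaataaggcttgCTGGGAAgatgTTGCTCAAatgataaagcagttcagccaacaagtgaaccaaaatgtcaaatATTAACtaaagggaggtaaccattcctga
Fgg: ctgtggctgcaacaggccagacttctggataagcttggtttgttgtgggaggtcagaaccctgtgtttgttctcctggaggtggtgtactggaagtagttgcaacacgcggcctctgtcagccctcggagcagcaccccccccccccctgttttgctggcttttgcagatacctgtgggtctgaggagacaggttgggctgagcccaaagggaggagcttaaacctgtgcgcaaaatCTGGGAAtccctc

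Fgb held a match to each of the 4 motifs, with TTCNNNGAA starting 162 bases, CTGGGAA 91 bases, TTGCNNAA 80 bases and GTTAAT 29 bases before the start. Fga held TTCNNNGAA at 234 bases, TTGCNNAA at 135 bases and GTTAAT at 43 bases, and Fgg held CTGGGAA at 13 bases. Of all 32851 windows of this length in the table, 7.02% held TTCNNNGAA, 9.10% CTGGGAA, 9.56% TTGCNNAA and 6.43% GTTAAT. The table had windows for 7 of the members that were looked up. Besides the fibrinogen genes, the F9 window held TTCNNNGAA and CTGGGAA in an overlapping match at 82 bases and TTGCNNAA at 24 bases, and these letters were not in the windows of F2, F10 and Serpinc1. Plg and Kng1 had no entry. A match is a description of the sequence and was not tied to any measurement.

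All 10 genes were detected in every class, from 172 UMIs for F9 under 2% at 48 h to 423669 UMIs for Fgb under 2% at 0 h. Together they made up 28070.1 CPM of non-mitochondrial UMIs above 30% and 21040.0 under 2% at 0 h, and 16493 and 7991 at 48 h.

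Among the fibrinogen chains, Fgb was at 6729.7 CPM above 30% and 5379.8 under 2% at 0 h, and at 4559 and 2263 at 48 h. It had the highest level of the 10 genes in each class. Fgg, the γ chain, was at 5126 and 4508 CPM at 0 h and at 3099 and 2088 at 48 h, next after Fgb in each class. Fga, the α chain, was at 2912 and 3479 CPM at 0 h and at 1360.0 and 683 at 48 h. It was the only chain whose level at 0 h was lower above 30% than under 2%, an order that held for Fgb and Fgg too when all UMIs were the denominator. Fgg overlaps Gm30097 on the opposite strand.

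Of the clotting enzymes, F2 (chr2:91625320-91636414, −) was at 2221 CPM above 30% and 2081 under 2% at 0 h, and at 1463 and 414 at 48 h. F10 (chr8:13037308-13056676, +) was at 1479 and 444 CPM at 0 h and at 825 and 273 at 48 h. F9 (chrX:59999464-60030759, +) was the lowest of the 10 in each class, at 183 and 228 CPM at 0 h and at 90.3 and 54.8 at 48 h. Relative to the level its intervals were the widest, 172 to 194 and 224 to 231 CPM at 0 h, and 82.3 to 99.0 and 47.0 to 63.7 at 48 h.

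The inhibitors were Serpinc1 and Proc. Serpinc1 (chr1:160978585-161005863, +) was at 2714 CPM above 30% and 1890.3 under 2% at 0 h, and at 1476 and 873 at 48 h. Proc was at 1091 and 420.4 CPM at 0 h and at 559 and 166 at 48 h. Both were highest at 0 h above 30% and lowest at 48 h under 2%, with the classes between in opposite order.

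Plg (chr17:12378608-12419385, +), the precursor of plasmin, was at 2339 CPM above 30% and 1464 under 2% at 0 h, and at 973 and 281 at 48 h. Kng1 (chr16:23057865-23082078, +) was at 3275 and 1146 CPM at 0 h and at 2087 and 894 at 48 h. Kng1, F10 and Proc were the genes whose level above 30% at 48 h was higher than their level under 2% at 0 h. Kng1 has a near-identical paralog, Kng2, so that its reads may be split between them. Plg and Serpinc1 overlap genes on the opposite strand (Slc22a3 for Plg, Gm37072 and Zbtb37 for Serpinc1), and Serpinc1 also overlaps Gm37729 on its own strand.

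**Figure D1:**
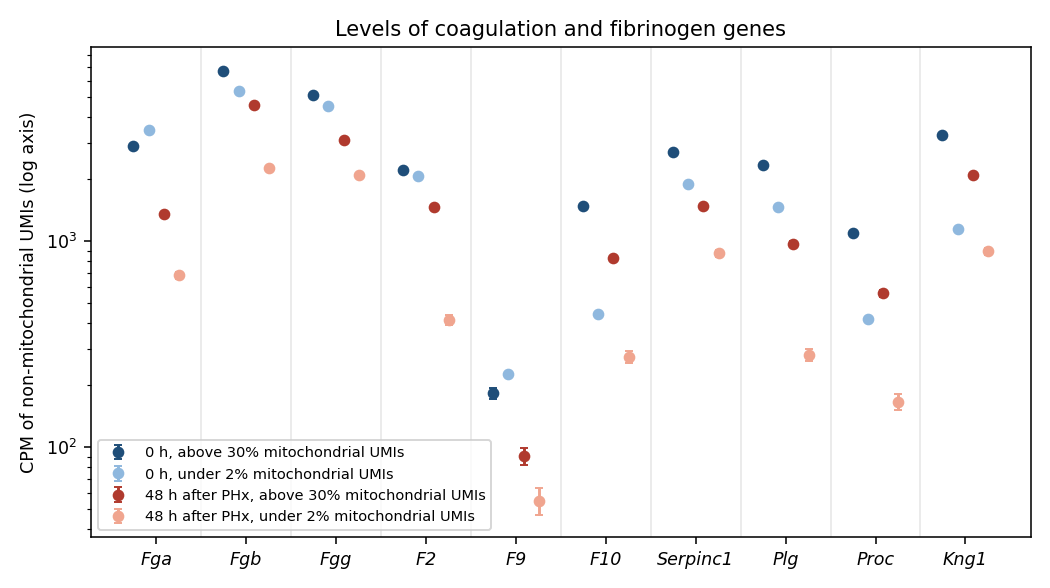
Level of each of the 10 genes in CPM of non-mitochondrial UMIs (log axis) in the 4 classes of barcodes, 1 library per time point; points are summed levels and bars are 95% exact Poisson intervals, which cover counting error only and are mostly smaller than the points. The lowest point of each gene is the class under 2% mitochondrial UMIs at 48 h, from 54.8 CPM for F9 to 2263 for Fgb.

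The first comparison asked how the genes stood at 48 h against 0 h within barcodes above 30% mitochondrial UMIs. All 10 were lower at 48 h, with a median log2 ratio of -0.86 and a range from -1.26 (Plg) to -0.56 (Fgb). The median of the 6718 genes compared was 0.54, which lay well above that of the 10. Of all genes compared, 28.5% had a lower level at 48 h.

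At 2-fold, 3 of the 10 fell and none rose, where 5.52% of all genes were called lower and 30.6% higher. The genes that fell were Plg (log2 ratio -1.26, interval -1.31 to -1.22), Fga (-1.10, interval -1.14 to -1.06) and F9 (-1.02, interval -1.18 to -0.86). The interval of F9 reached past the 2-fold limit. The other 7 lay between Proc (-0.97, interval -1.03 to -0.90) and Fgb (-0.56, interval -0.59 to -0.54), with Serpinc1 at -0.88, F10 at -0.84, Fgg at -0.73, Kng1 at -0.65 and F2 at -0.60. Scaling by TMM or by the median of ratios moved every log2 ratio of this comparison by -0.56 or -0.53, and all 10 were then called lower, as were 15% or 14.3% of all genes. With TMM 13.7% of all genes were called higher.

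The same comparison in barcodes under 2% mitochondrial UMIs gave a median log2 ratio of -1.29, beside 0.09 for the 5716 genes compared. All 10 genes were again lower at 48 h, as were 47.3% of all genes. At 2-fold 8 of the 10 fell, where 21.6% of all genes were called lower and 25.8% higher. With TMM 9 fell, where 29.8% of all genes were called lower and 18.3% higher. Plg (-2.38, interval -2.48 to -2.29), Fga (-2.35, interval -2.41 to -2.29), F2 (-2.33, interval -2.41 to -2.25) and F9 (-2.05, interval -2.28 to -1.84) had the lowest ratios. Proc (-1.34), Fgb (-1.25), Serpinc1 (-1.11) and Fgg (-1.11) also passed the limit. F10 (-0.70, interval -0.80 to -0.60) and Kng1 (-0.36, interval -0.41 to -0.30) did not.

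In log2 units the median of the 10 lay about as far below the median of all genes in both classes, by 1.40 above 30% and 1.38 under 2%. By rank the 10 lay lower above 30%, where their median percentile among all genes compared was 7.1, against 16.2 under 2%. Single genes differed more. For 8 genes the log2 ratio itself was lower under 2% than above 30%, by the most for F2, whose ratios stood 1.73 apart, and for Fga, with 1.25. For Serpinc1 this order nearly vanished with TMM (-1.44 above 30% and -1.46 under 2%) and turned with the median of ratios (-1.41 and -1.37). The medians of all genes, 0.54 above 30% and 0.09 under 2%, stood farther apart than the ratios of Fgg (0.38 apart), Proc (0.37) and Serpinc1 (0.24). Set against those medians, Fgg, Proc and Serpinc1 did not keep this order. Kng1 had the opposite order, and for F10 the intervals of both classes overlapped. Fibrinogen as a sum stood at a log2 ratio of -0.71 (interval -0.73 to -0.70) above 30% and at -1.41 (interval -1.43 to -1.39) under 2%, that is 1.64-fold and 2.66-fold lower at 48 h. These values compare 1 library with another.

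**Figure D2:**
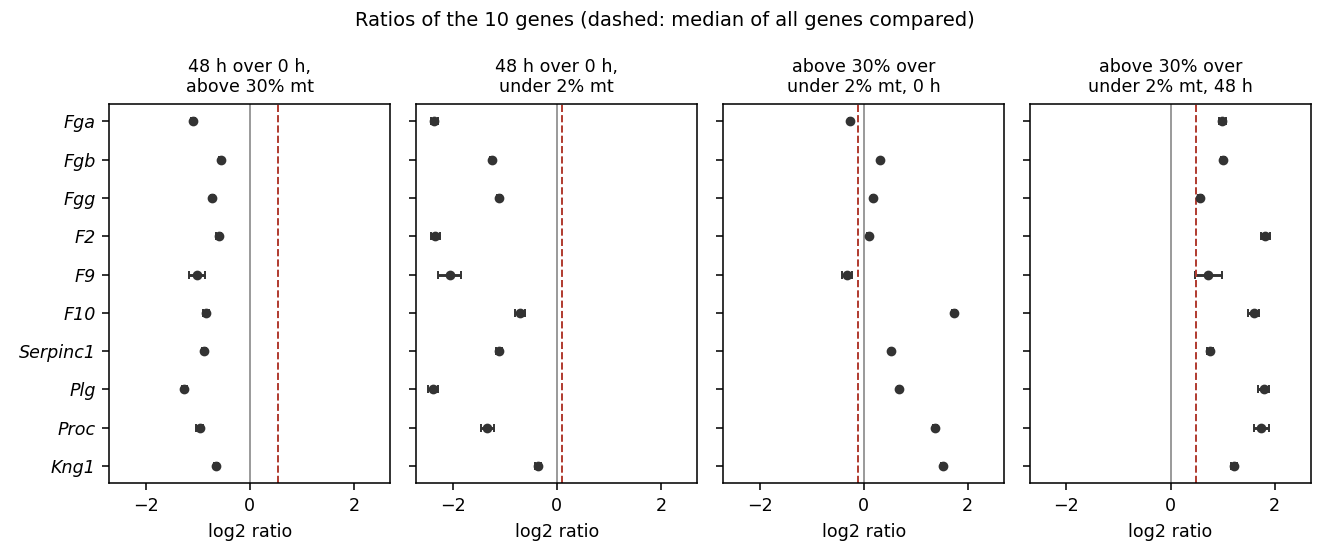
Log2 ratio of each of the 10 genes in 4 comparisons, 48 h over 0 h within each class and above 30% over under 2% mitochondrial UMIs within each library; bars are 95% exact conditional binomial intervals for counting error, the solid line marks 0 and the dashed line the median of all genes compared. In both comparisons of 48 h with 0 h every point lies left of 0, with medians of -0.86 and -1.29.

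Within the undamaged library, barcodes above 30% mitochondrial UMIs were next set against those under 2%. The median log2 ratio of the 10 genes was 0.42 on non-mitochondrial UMIs, beside -0.10 for the 5781 genes compared, and it turned to -0.45 when mitochondrial UMIs were kept in the denominator. F10 (log2 ratio 1.74, interval 1.70 to 1.77), Kng1 (1.52, interval 1.49 to 1.54) and Proc (1.38, interval 1.34 to 1.42) were the 3 genes called higher above 30%, where 11.7% of all genes were, and none of the 10 was called higher with mitochondrial UMIs in the denominator. Plg (0.68), Serpinc1 (0.52), Fgb (0.32), Fgg (0.19) and F2 (0.09) had ratios above 0, all of which were below 0 with all UMIs as the denominator, as was that of F2 with TMM and the median of ratios. Fga (-0.26) and F9 (-0.32) had ratios below 0, and none of these 7 genes passed the 2-fold limit.

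At 48 h the median log2 ratio of above 30% over under 2% was 1.12, beside 0.49 for the 6563 genes compared, and -0.01 with mitochondrial UMIs in the denominator. On non-mitochondrial UMIs 6 of the 10 were called higher above 30%, where 31.2% of all genes were: F2 (1.82), Plg (1.79), Proc (1.75), F10 (1.59), Kng1 (1.22) and Fgb (1.01), none of which passed with all UMIs as the denominator, nor Kng1 (0.71) and Fgb (0.50) with TMM. Fga, with a ratio of 0.99 (interval 0.92 to 1.06), lay just short of the 2-fold limit and Fgb (interval 0.97 to 1.05) just past it. Serpinc1 (0.76), F9 (0.72) and Fgg (0.57) did not pass. With all UMIs as the denominator the ratios of Fga, Fgb, Fgg, F9 and Serpinc1 were below 0, as was that of Fgg with the median of ratios. F2 was thus nearly level between the classes at 0 h, 2221 against 2081 CPM, and stood 3.54-fold higher above 30% at 48 h, 1463 against 414.

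The limits of 2% and 30% cut a continuous range. In the undamaged library the 10 genes together were at 20745 CPM in barcodes with 1 to 2% mitochondrial UMIs and at 18169 with 2 to 3%, and at 24206 with 25 to 30% and 25987 with 30 to 35%. In the PHx48h library these levels were 8947 and 6342 CPM around the lower limit, and 14819 and 15410.4 around the upper limit.

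Over the whole range the genes followed different courses. Summed fibrinogen at 0 h ranged between 11212 CPM (2 to 5% mitochondrial UMIs) and 15041 (50 to 60%) over the 9 bins with at least 20 barcodes. F2 was as even, at 1734 to 2231 CPM. F10 in contrast was at 425 CPM with 2 to 5% and at 1706 with 50 to 60%, and Kng1 was at 983 with 2 to 5% and at 3853 with 60 to 70%. Proc had a like course, from 357 to 1228 CPM.

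At 48 h all of these genes were lowest in the bin of 2 to 5% mitochondrial UMIs. Fibrinogen was at 5034 CPM under 2%, at 3246 with 2 to 5%, at 7524 with 10 to 20% and at 9395 with 60 to 70%. F2 had a wider range than at 0 h, from 297 to 1663 CPM, and F10 went from 155 to 937. The bins of 2 to 10% were also rich in the nuclear transcript Malat1, at 8504 and 6899 CPM against 2172 under 2%, and 63 of the 299 barcodes between 2 and 30% carried at least 1% non-parenchymal marker UMIs. The part of these barcodes in the dip was not tested.

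**Figure D3:**
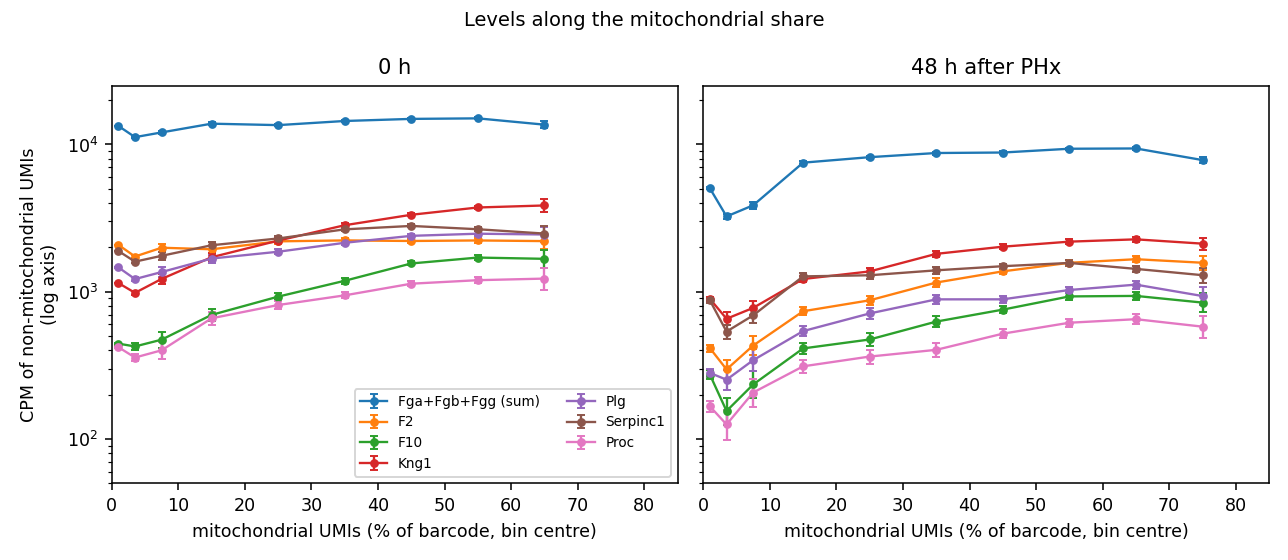
Level in CPM of non-mitochondrial UMIs (log axis) against the mitochondrial share of the barcode (bin centre, in %), for summed fibrinogen and 6 single genes in each library; points are levels over all barcodes of a bin with at least 20 barcodes and bars are 95% exact Poisson intervals. At 0 h fibrinogen and F2 are nearly level while F10, Kng1 and Proc climb with the mitochondrial share, and at 48 h all lines dip at 2 to 5% before they climb.

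The makeup of the fibrinogen transcripts also differed between the classes. Fga gave 19.7% of the fibrinogen UMIs above 30% and 26.0% under 2% at 0 h, and 15.1% and 13.6% at 48 h. Fgb gave 45.6% and 40.2% at 0 h and 50.6% and 44.9% at 48 h. Fgg was steadier, at 34.7% and 33.7% at 0 h and 34.4% above 30% at 48 h, but reached 41.5% under 2% at 48 h. The Fga share was thus lower at 48 h in both classes, and the exact binomial intervals of the 4 classes did not overlap between times. These shares do not depend on the scaling of the libraries.

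To compare barcodes at a common depth, each was thinned to 500 non-mitochondrial UMIs, which left out 75 undamaged barcodes above 30%. Free RNA in the suspension gives UMIs in any droplet. Barcodes with at least 1% non-parenchymal marker UMIs, 355 at 0 h and 67 at 48 h, therefore served as a background. Their median depths were 2696 and 5990 non-mitochondrial UMIs. Doublets were not removed, so these barcodes may also hold hepatocytes. The source of their hepatocyte transcripts was not tested. Barcodes of that kind were left out of both classes in this comparison, and 3792 and 52538 barcodes at 0 h and 765 and 518 at 48 h remained.

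Fgb was found in 94.3% of barcodes above 30% and 93.0% under 2% at 0 h, beside 73.8% in the background, and in 86.9% and 65.1% at 48 h, beside 31.3%. Fga was found in 74.6% and 82.1% at 0 h, beside 57.2%, and in 45.5% and 28.8% at 48 h, beside 8.96%. Barcodes of the background thus carried fibrinogen transcripts too. Without thinning, Fgb was found in 99.0% or more of the barcodes of each class and in 98.9% and 100% of the background, and Fga in 92.2% or more of the classes and in 98.3% and 82.1% of the background.

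F10 was found in 55.0% of barcodes above 30% and 19.8% under 2% at 0 h, beside 13.5% in the background, and in 34.6% and 12.9% at 48 h, beside 1.49%. Proc was found in 43.4% and 18.6% at 0 h, beside 6.48%, and in 26.3% and 7.14% at 48 h, beside 4.48%. Under 2% at 48 h the Proc interval (5.08 to 9.71%) overlapped that of the background (0.933 to 12.5%). There the shares of Plg (12.4% beside 13.4%) and F9 (2.51% beside 4.48%) were no higher than the background, whereas at 1000 UMIs they were 23.7% beside 8.96% and 7.14% beside 1.49%, with intervals that overlapped for F9 but not for Plg. Without thinning F10 was found in 83.5% and 47.6% at 0 h, beside 50.7%, and in 92.0% and 78.2% at 48 h, beside 38.8%, and Proc in 74.3% and 45.4%, beside 38.0%, and in 87.5% and 59.5%, beside 28.4%. The summed level of the 10 genes was 10274 CPM in the background barcodes and 21549 in the others at 0 h, and 2822 and 12858 at 48 h.

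The spread of the thinned counts between barcodes also differed by class for some of the genes. In barcodes under 2% at 0 h the variance over the mean was between 1.01 and 1.03 for all 10 genes, where sampling from a common profile gives a value near 1. Above 30% it was 1.28 for Fgb and 1.16 for Fgg at 0 h, and 1.36 for both at 48 h. Plg was at 1.18 and Kng1 at 1.16 at 48 h. The remaining genes above 30% were nearer to 1, from 0.95 (Proc) to 1.08 (Plg) at 0 h and from 0.98 (Serpinc1) to 1.13 (Fga) at 48 h. Under 2% at 48 h it ran from 0.91 (Fgg) to 1.12 (F9). Correlations between genes across barcodes were weak. Over the 45 gene pairs Spearman's rho ran from -0.01 to 0.01 in the 52538 barcodes under 2% at 0 h. Above 30% it was highest for Fgb with Fgg, at 0.15 in 3792 barcodes at 0 h and 0.21 in 765 at 48 h. This pair was also the highest in the 518 barcodes under 2% at 48 h, at 0.15. All barcodes of a class come from 1 library, so these values are descriptions.

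Hepatocytes differ along the axis from portal to central vein, and the genes were compared between barcodes of unlike zonal landmark content. Barcodes of a class were ranked by the share of perivenous genes (12, among them Cyp2e1 and Glul) among their zonal landmark UMIs (12 periportal genes, among them Cyp2f2 and Sds), and the tertiles with the highest and the lowest share were compared. Above 30% these had 1289 barcodes each at 0 h and 255 at 48 h.

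Above 30% all 10 genes were lower in the perivenous tertile in both libraries. At 0 h the median log2 ratio was -0.33, beside 0.27 for all genes, of which 28.1% were lower, and at 48 h it was -0.40, beside 0.08 and 43.2%. Fgb had ratios of -0.64 (interval -0.68 to -0.60) at 0 h and -0.59 (interval -0.64 to -0.54) at 48 h, Fga -0.53 and -0.41, and Fgg -0.45 and -0.43. Plg stood at -0.33 at 0 h and -0.61 at 48 h, and Serpinc1 at -0.34 and -0.53. For Proc at 0 h the ratio was -0.01, with an interval that held 0 (-0.10 to 0.08). None of these reached 2-fold. Depth moved with the split at 48 h, with a median of 7020.0 non-mitochondrial UMIs in the periportal and 3572 in the perivenous tertile, and its part in the ratios was not tested.

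Barcodes under 2% gave another picture. At 0 h, with 17512 barcodes in each tertile, the ratios of the 10 genes lay between -0.01 and 0.03, and the tertiles themselves differed little, the perivenous share of landmark UMIs being at most 51.4% in the lower and at least 58.6% in the upper. At 48 h, with 172 barcodes in each, 9 of the 10 genes were higher in the perivenous tertile, where 46.1% of all genes were, with a median log2 ratio of 0.24 beside -0.04 for all genes. Plg had the highest ratio, 0.63 (interval 0.39 to 0.87), followed by F2 with 0.46 (interval 0.26 to 0.66) and Fga with 0.36 (interval 0.21 to 0.51). The intervals of F9, F10 and Proc held 0.

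**Figure D4:**
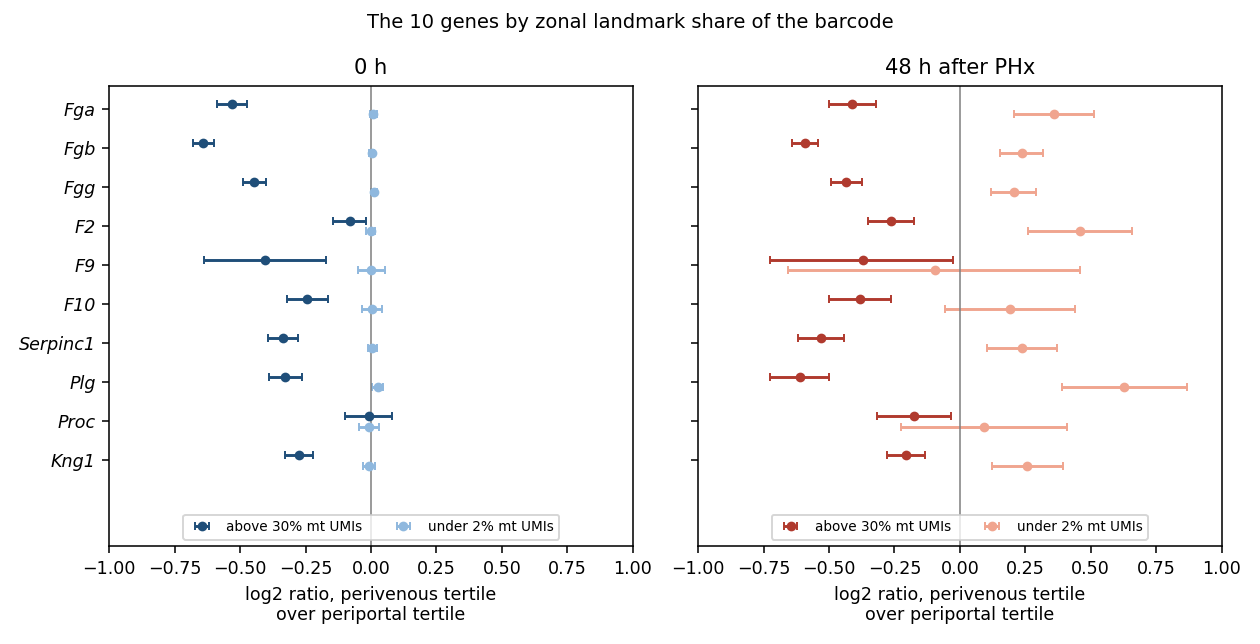
Log2 ratio of each gene between the tertile of barcodes with the highest perivenous share of zonal landmark UMIs and the tertile with the highest periportal share, in each library and class; bars are 95% exact conditional binomial intervals for counting error. Above 30% mitochondrial UMIs all points lie left of 0, with medians of -0.33 and -0.40, whereas under 2% they lie at 0 in the undamaged library and, except for F9, right of it at 48 h.

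At 48 h barcodes with a proliferation UMI after thinning were also compared with those without. Above 30%, 293 barcodes had such a UMI and 472 had not, and all 10 genes were slightly lower in the former, with a median log2 ratio of -0.10, beside 0.03 for all genes, of which 45.5% were lower. Plg had the lowest ratio, -0.21 (interval -0.29 to -0.13), and for F9, Serpinc1 and Proc the interval held 0. Under 2%, with 253 and 265 barcodes, the median was 0.01.

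The rest of the coagulation and fibrinolysis system was covered by 35 further genes in 4 lists. Above 30%, 22 of them were abundant enough to compare between times, 5 fell and 1 rose at 48 h (5.52% and 30.6% of all genes), and the median log2 ratio was -0.42, beside 0.54 for all genes. Under 2%, 21 were compared, 12 fell and 1 rose (21.6% and 25.8% of all genes), and the median was -1.26, beside 0.09. With TMM 9 fell above 30% (15% of all genes) and 15 under 2% (29.8%), and none rose. Of the procoagulant factors 3 of 7 fell above 30%. These were Klkb1, which encodes plasma prekallikrein (420.4 to 113 CPM, log2 ratio -1.90), F7, which encodes factor VII (255 to 123, -1.06), and F12, which encodes factor XII (883 to 429, -1.04). Kng2, the paralog of Kng1, was at 437 CPM at 0 h and 462 at 48 h above 30%. Under 2% it was higher at 48 h, at 103.5 and 199.6 CPM (log2 ratio 0.95).

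By the vitamin K cycle F2, F9, F10 and Proc gain the carboxylated residues they need. In the list of genes of this cycle and of factor secretion, 1 of 5 fell above 30%, namely Vkorc1, the target of warfarin (270.3 to 120.5 CPM, -1.17). Among 6 anticoagulants compared Serpine2, a thrombin inhibitor of tissues, fell (16.6 to 5.49 CPM, on 96 and 28 UMIs, -1.60). Of the 4 genes compared above 30% in the list of fibrinolysis genes none fell 2-fold, but 3 had ratios below 0, the lowest being -0.71. Under 2% 1 of the 4 fell (-1.26). Fgl1, which encodes a fibrinogen-like protein secreted by hepatocytes and was placed in that list, rose above 30% from 470.03 to 1055 CPM (log2 ratio 1.17, interval 1.10 to 1.23). Fgl1 also rose under 2%, with a ratio of 1.04, and with TMM its ratios were 0.61 and 0.69, short of 2-fold. The 13 genes not compared above 30%, among them F3, F8, F13a1, Vwf, Tfpi, Thbd, Plat and Plau, had a mean level under 10 CPM and at most 45 UMIs in either library there.

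**Figure D5:**
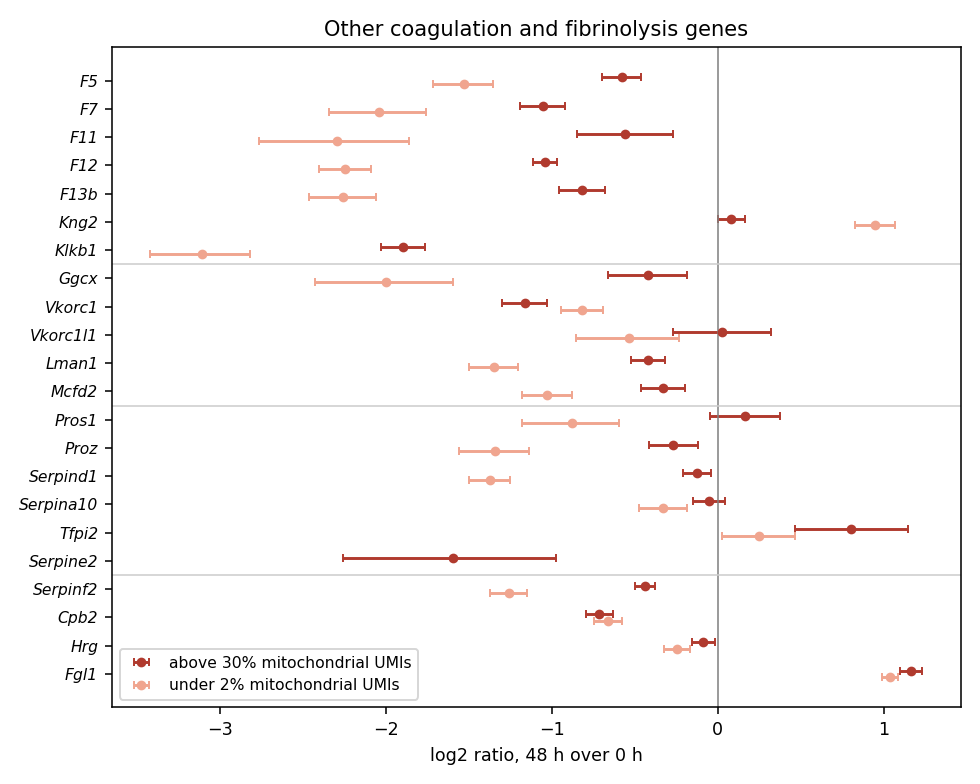
Log2 ratio of 48 h over 0 h for the 22 further coagulation and fibrinolysis genes that could be compared above 30% mitochondrial UMIs, grouped from the top as procoagulant factors, vitamin K cycle and secretion, anticoagulants and fibrinolysis genes; bars are 95% exact conditional binomial intervals for counting error, and the paler points are barcodes under 2%. Klkb1 lies farthest left in both classes and Fgl1 is the only gene past 2-fold on the right, which it is not with TMM (0.61 and 0.69).

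Lists of other plasma proteins made by hepatocytes were set beside the 10 genes. Of 17 complement genes compared above 30%, 6 fell and none rose, where 5.52% of all genes were called lower, with a median log2 ratio of -0.59 and a range from -1.42 (C8b) to 0.21 (Cfb). With TMM 12 of them fell and the median was -1.15, and with the median of ratios 11 fell and it was -1.12, where 15% and 14.3% of all genes were called lower. Of 12 acute phase genes 2 rose and 2 fell (1 and 3 with TMM), with a median of 0.28 and a range from -1.58 (Crp) to 3.13 (Orm2), and with TMM the median was -0.28. Of all genes 30.6% were called higher and 5.52% lower (13.7% and 15% with TMM). The median of all genes was 0.54, and -0.02 with TMM, so that of the acute phase list lay below it. Under 2% the medians of these lists were -1.46 and -0.13. The 3 fibrinogen genes, also known as acute phase genes, had ratios from -1.10 to -0.56 above 30%. They had been left out of the acute phase list, in which 8 genes had ratios above 0 and 4 below (71.5% and 28.5% of all genes). Under 2% the fibrinogen genes ran from -2.35 (Fga) to -1.11 (Fgg), and the acute phase list from -2.31 (Crp) to 5.14 (Orm2).

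The genes whose course over the mitochondrial share was most like that of summed fibrinogen were found among 2332 genes at a mean level of at least 50 CPM. Likeness was the root mean square difference of centred log2 levels over 19 bins, 9 at 0 h and 10 at 48 h. Outside the 10 genes, Azgp1 (0.15), F5 (0.16), Car14 (0.17) and Slc38a4 (0.18) were among the closest. F5 encodes factor V, the cofactor of activated factor X. Among the 10, Serpinc1 came closest after the chains Fgg and Fgb, at 0.12 and in place 3 of 2332. The sum contains the 3 chains and takes most of its UMIs from Fgb and Fgg, so their closeness to it is partly built in. Fga, at 0.31, was farther from the sum than the other chains, and F10 was farthest of the 10, at 0.56. The points share their libraries and depths, so likeness is a description over these bins.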

How the data were processed

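Transcripts were measured by 10X Genomics 3′ scRNA-Seq in 1 library per group, undamaged and 48 h after PHx, each assigned from its time point label. The deposited values were UMI counts per gene and barcode, which the authors had made with Cell Ranger and left without normalization. The submitters' processing notes name Cell Ranger and mm10, and the version of the former and the annotation are not given in the sources used here. The gene and barcode files gave names only. The authors' methods exclude cells with high mitochondrial content and possible doublets from their downstream analysis, at limits that are not given in the sources used here. All deposited barcodes were used here, and doublets were not removed. Bulk RNA-Seq and chromatin data of the study were not analysed here.

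From the counts, UMIs were summed over the barcodes above 30% or under 2% mitochondrial UMIs (13 genes) and expressed per 1000000 non-mitochondrial UMIs (CPM), with 95% exact intervals in Python 3.11.15 (NumPy 2.4.6, SciPy 1.17.1, pandas 2.3.3) and figures in matplotlib 3.10.9. Depth was 96118593 UMIs at 0 h and 18198719 at 48 h, and a count of 0 allows a level of up to 0.038 to 0.957 CPM (3 counts). PCR copies were collapsed by UMI, but intervals cover counting error only. Genes were called at 2-fold with a mean of at least 10 CPM, and the steps were tested on simulated data. TMM factors came from edgeR 4.0.16 and size factors from DESeq2 1.42.0 in R 4.3.3, and no test of either was run, since each group had 1 library. Barcodes were thinned to 500 non-mitochondrial UMIs without replacement for shares, spread and correlations. Gene positions were read from GENCODE M21 (GRCm38) and promoters from a RefSeq table (GRCm38.p6), and none is given for Proc. Of the marker lists, 2 genes (Trbc2 and Ighm) had no entry in the files.

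The 10 genes, the gene lists and the comparisons were chosen with earlier results of these data known. The text names all 10 genes, of the other coagulation lists every gene called at 2-fold above 30%, of the complement and acute phase lists the highest and lowest ratio, and the 5 genes most like fibrinogen, except that some results these rules would name are not reported here. Kng2, Malat1 and some of the genes not compared were named besides, after their values were seen. Alternatives were other mitochondrial limits, other scalings, the mean of single barcodes, a depth minimum, removal of barcodes rich in non-parenchymal markers, other fold and level limits and other thinning depths.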

Additional observations from a re-analysis of the deposited data

Results flagged for a closer look

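Some ratios pointed in opposite directions in groups that were compared in the same way, each with a counting interval that did not hold 0. These differences were not tested, since each group had 1 library.

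The log2 ratio of above 30% over under 2% mitochondrial UMIs was -0.26 at 0 h and 0.99 at 48 h for Fga, and -0.32 at 0 h and 0.72 at 48 h for F9. With mitochondrial UMIs in the denominator both genes were below 0 at both times.

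In the PHx48h library the log2 ratio of the perivenous over the periportal tertile was below 0 above 30% and above 0 under 2% for 7 genes. It was -0.41 and 0.36 for Fga, -0.59 and 0.24 for Fgb, -0.43 and 0.21 for Fgg, and -0.26 and 0.46 for F2. It was -0.53 and 0.24 for Serpinc1, -0.61 and 0.63 for Plg, and -0.20 and 0.26 for Kng1. In the undamaged library Plg had ratios of -0.33 above 30% and 0.026 under 2%.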

How the results depend on the processing

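No paired analysis was possible because each group had 1 library, and leaving out a replicate was not possible for the same reason. The comparisons of 48 h with 0 h kept their direction for all 10 genes under every alternative. Above 30% the median log2 ratio was -1.42 with TMM, -1.39 with the median of ratios, -1.12 without the 20 most abundant genes, -1.12 per 1000000 of all UMIs and -0.91 as the mean of single barcodes, and 10, 10, 6 and 6 genes were called lower under the first 4 of these and 9 at 1.5-fold, in place of 3. Of all genes 15% were called lower with TMM, 14.3% with the median of ratios and 11.6% at 1.5-fold, in place of 5.52%. Without the 20 most abundant genes and per 1000000 of all UMIs this share was not computed, so the counts of 6 have no share beside them. The median of all genes was then 0.29 and 0.25, in place of 0.54. Under 2% the median log2 ratio of the 10 genes was -1.64 with TMM, -1.55 with the median of ratios and -1.52 without the 20 most abundant genes. For above 30% over under 2% at 0 h the median was 0.38 with a limit of 20%, 0.26 with TMM, 0.25 with the median of ratios, 0.53 without the 20 most abundant genes and -0.45 per 1000000 of all UMIs, where 0 genes were called higher in place of 3. At 48 h it was 1.18 with a limit of 50%, 1.19 with a low limit of 5%, 0.60 with TMM, 0.54 with the median of ratios, 1.19 without the 20 most abundant genes and -0.012 per 1000000 of all UMIs, where 0 genes were called higher in place of 6 and Fgb stood at -0.12. That denominator includes the mitochondrial UMIs by which the classes were defined. With it the median of all genes was -1.04 at 0 h and -0.82 at 48 h, and the share of all genes called higher was not computed. Of 400 single-gene values, 197 stayed within their counting interval and 13 changed sign, F2 at 0 h under TMM (-0.07) among them. Thinning to 1000 UMIs or not thinning gave higher shares of barcodes with a UMI for every one of the 10 genes in each class, so that depth limits those shares.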
